A study of Mus musculus with 70 samples.

Results

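The 8 genes described here make, package, take up and break down catecholamines: Th, Ddc, Gch1, Slc18a2, Slc29a4, Slc22a3, Maoa and Maob. They are 8 of 50789 identifiers in a table of RNA-seq read counts from mice that lack the short isoform (Cic-S-KO) or the long isoform (Cic-L-KO) of Capicua, and they were taken by name. The set was selected on these same data, because Th was high in Cic-S-KO cerebellum and Slc29a4 was high in Cic-L-KO cortex, so those values are given as a description with no test. The brain samples were cortex and cerebellum at 12 weeks of age, with 8 WT, 7 Cic-S-KO and 8 Cic-L-KO samples in each region. Lung was taken at postnatal day 6, with 8 samples of each genotype. WT samples were littermate controls pooled from both lines, and no treatment is named. The labels say neither how each isoform was removed nor whether it was removed from every cell, and they do not tie samples to animals, so p-values measure the spread between these samples.

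Catecholamines are made from tyrosine. Tyrosine hydroxylase (Th), the rate-limiting enzyme, gives L-DOPA with tetrahydrobiopterin as cofactor, whose synthesis starts with GTP cyclohydrolase (Gch1), and aromatic amino acid decarboxylase (Ddc) then gives dopamine. The vesicular monoamine transporter (Slc18a2) loads the product into vesicles, the low-affinity, high-capacity transporters PMAT (Slc29a4) and OCT3 (Slc22a3) take monoamines up from outside the cell, and the monoamine oxidases (Maoa, Maob) break them down inside it. The cell bodies of neurons that release dopamine or noradrenaline lie mostly in the brainstem and midbrain and send axons to cortex and cerebellum, and Th mRNA is also known from some cerebellar Purkinje cells. Capicua is a DNA-binding repressor of transcription whose isoforms differ at the N-terminal end.

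Libraries held between 17798655 and 35523037 counted reads, and all brain libraries carry batch number 2 and all lung libraries batch number 1. Values below are CPM, read counts relative to library size after TMM scaling, with 1 scale for the 46 brain libraries and another for lung. The counts of Cic are summed over its isoforms and cannot show the loss of 1 of them: mean Cic CPM in WT, Cic-S-KO and Cic-L-KO was 167, 258 and 306 in cortex, 187, 207 and 206 in cerebellum, and 139, 172 and 135 in lung. Tissue labels fitted the markers: the summed CPM of 4 cortical excitatory neuron genes was at least 4161 in cortex and at most 795 in cerebellum, that of 5 granule neuron genes was at least 2828 in cerebellum and at most 65.8 in cortex, and that of 5 alveolar epithelium genes was at least 15112 in lung. The sum of 4 Y-linked genes had medians of 82.1, 0 and 83.5 CPM in WT, Cic-S-KO and Cic-L-KO cortex and 111, 0.0358 and 96.8 in cerebellum. Every brain group ran from 0 to at least 175 CPM, so both sexes were present in each. The sexes were thus unevenly spread, and sex is partly confounded with Cic-S-KO in brain. Some libraries stood apart within their group. In cortex, olfactory bulb markers (Eomes, Cdhr1, Doc2g, Tbx21) summed to over 15 CPM in 1 WT, 3 Cic-S-KO and 1 Cic-L-KO libraries, and choroid plexus markers (Ttr, Folr1, Kl, Clic6, Aqp1) to over 100 CPM in 2 WT, 2 Cic-S-KO and 5 Cic-L-KO libraries. In cerebellum, Dbh and Slc6a2, markers of noradrenergic neurons, together exceeded 10 CPM in 1 WT, 2 Cic-S-KO and 1 Cic-L-KO libraries.

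The promoters of Th and Slc29a4, the genes on which the set was selected, are shown because Capicua binds a known DNA octamer. Each is the stretch of 250 bases before the RefSeq start on GRCm38.p6. The Th stretch is chr7:142899996-142900245 on the minus strand and the Slc29a4 stretch chr5:142701851-142702100 on the plus strand, both written 5′ to 3′. Capitals mark TGACGTCA, the cyclic AMP response element, which reads the same on both strands and starts 45 bases before the Th start.
Th: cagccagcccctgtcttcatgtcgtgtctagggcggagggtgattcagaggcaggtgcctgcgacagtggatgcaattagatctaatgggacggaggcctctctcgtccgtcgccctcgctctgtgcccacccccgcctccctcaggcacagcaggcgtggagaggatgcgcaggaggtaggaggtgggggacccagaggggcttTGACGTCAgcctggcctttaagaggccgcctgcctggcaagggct
Slc29a4: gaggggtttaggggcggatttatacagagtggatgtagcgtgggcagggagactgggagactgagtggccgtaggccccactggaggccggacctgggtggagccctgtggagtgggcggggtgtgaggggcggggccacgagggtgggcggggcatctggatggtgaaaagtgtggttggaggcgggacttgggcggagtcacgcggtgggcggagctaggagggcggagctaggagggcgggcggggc
The Th stretch was 64.4% G or C and the Slc29a4 stretch 68.8%. TGACGTCA occurred in 1.55% of 32851 promoter stretches of this length and, among the members with an entry, in that of Th alone. The table held entries for 7 of the 8 members, all except Maob. The Capicua octamers TGAATGAA, TGAATGGA, TCAATGAA and TCAATGGA, searched on both strands, were in 1.08%, 1.01%, 0.642% and 0.521% of the stretches, and 3.19% held at least 1 of the 4. None of the members' stretches held any of them, which says only that these letters are not in these windows. GENCODE M21 places other starts of Th and Slc29a4 further upstream, outside the stretches shown. The Th gene spans chr7:142892752-142931128 on the chromosome that also carries Cic, 117.6 Mb away, and Slc29a4 spans chr5:142692512-142722490.

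Levels of different genes were compared as RPKM, which is CPM per kilobase of annotated exon. In WT cortex the oxidases were highest, with a mean ± SD (n = 8) of 10.8 ± 0.976 RPKM for Maob and 9.04 ± 0.429 for Maoa, followed by Slc29a4 at 3.18 ± 0.799. Ddc at 1.27 ± 0.157, Slc18a2 at 1.21 ± 0.182 and Th at 1.02 ± 0.469 RPKM lay within each other's spread, and Slc22a3 at 0.442 ± 0.103 and Gch1 at 0.156 ± 0.0614 were lowest. In WT cerebellum Slc29a4 at 15.9 ± 1.48 and Maoa at 14.9 ± 0.655 RPKM headed the order and were within their spread of each other, followed by Maob at 9.32 ± 1.09 and Th at 4.13 ± 0.700. Slc18a2 at 1.05 ± 0.267 and Ddc at 1.03 ± 0.205 RPKM followed, then Gch1 at 0.262 ± 0.0966 and Slc22a3 at 0.0414 ± 0.0141. Transcripts for breakdown were more abundant per length than those for synthesis and vesicle loading in both regions.

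Between the WT regions, 4 of the 6 members tested differed in edgeR's quasi-likelihood test with Benjamini-Hochberg adjustment at 0.05, where 73.5% of all genes did. Slc22a3 showed the widest gap of the 6, from 0.1 to 0.275 CPM in cerebellum against 1.36 to 2.7 in cortex, a log2 difference of 3.39 (SE 0.349, 10.5-fold, edgeR adjusted p = 2.55e-12) with no overlap. Maoa was lower in every WT cortex library (34.8 to 40.6 CPM) than in any WT cerebellum library (57.4 to 66.8), with log2 -0.72 (SE 0.0438, edgeR adjusted p = 1.58e-20). Its X-linked neighbour Maob differed the other way, being higher in cortex by log2 0.21 (SE 0.0865, edgeR adjusted p = 0.0277) with overlapping groups. That call was lost without the filter on low counts, at an adjusted p of 0.0731. Gch1 was lower in cortex by log2 -0.75 (SE 0.253, edgeR adjusted p = 0.00704), with 1 of 8 cortex libraries below all cerebellum libraries. Ddc (log2 0.30, interval 95% -0.03 to 0.63) and Slc18a2 (0.20, -0.10 to 0.50) did not pass. Th and Slc29a4, given without a test, were both lower in all 8 WT cortex libraries than in any WT cerebellum library, by log2 -2.03 and -2.32.

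Th was the synthesis gene that chose the cerebellar comparison. In WT cerebellum its lowest, median and highest values were 7.66, 9.74 and 12.4 CPM, in Cic-S-KO 18.2, 24.0 and 27.4, and in Cic-L-KO 8.38, 11.7 and 12.7. All 7 Cic-S-KO libraries lay above every WT and every Cic-L-KO library, while the WT and Cic-L-KO ranges overlapped. The means were 9.75 ± 1.65 (SD, n = 8), 23.6 ± 2.79 (n = 7) and 10.8 ± 1.77 (n = 8) CPM. The fitted difference of Cic-S-KO from WT was log2 1.27 (SE 0.106), or 2.42-fold, and that of Cic-L-KO from WT was log2 0.15 (SE 0.104), both against the same WT libraries. Without the 4 libraries high in Dbh and Slc6a2 the Cic-S-KO difference was 1.24. Without the cerebellar libraries over 1000 CPM of choroid plexus markers it was 1.18. In the 3 Cic-S-KO libraries lowest in Dbh plus Slc6a2 (0.472, 1.08 and 1.26 CPM) Th stood at 24.0, 24.5 and 22.8 CPM. In those highest (26.8 and 18.1 CPM) it stood at 27.4 and 23.1 CPM. In bulk tissue, more cells of a type and more RNA per cell cannot be told apart. The summed CPM of 6 Purkinje cell genes ran from 7392 to 10948 (median 9705) in WT and from 9451 to 12480 (median 11390) in Cic-S-KO cerebellum, overlapping ranges, and that of 5 granule neuron genes from 4189 to 5179 and from 2828 to 4352. Slc6a3, the dopamine transporter and a marker of dopamine neurons, was at most 0.202 CPM in any cerebellar library. The libraries to leave out were chosen after seeing the data. The part of all these markers in the Th difference was not tested.

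Cortical Th was lower and more variable. Its lowest, median and highest values were 1.45, 2.07 and 5.02 CPM in WT, 1.75, 3.17 and 5.31 in Cic-S-KO, and 1.64, 2.26 and 3.87 in Cic-L-KO, and the groups overlapped. The Cic-S-KO difference from WT was log2 0.53 (SE 0.246, 95% interval 0.02 to 1.04) and did not pass (edgeR adjusted p = 0.198). Most high values went with the olfactory bulb markers: the WT library at 5.02 CPM had a marker sum of 23.3 CPM, the Cic-S-KO libraries at 5.31 and 4.92 had 24.9 and 21.3, and the Cic-L-KO library at 3.87 had 16.2. A Cic-S-KO library with a sum of 19.9 stood at 3.02 CPM, below its group's median. Without the 5 libraries over 15 CPM the difference was log2 0.44 (edgeR adjusted p = 0.187). Their part in the cortical values was not tested.

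**Figure D1:**
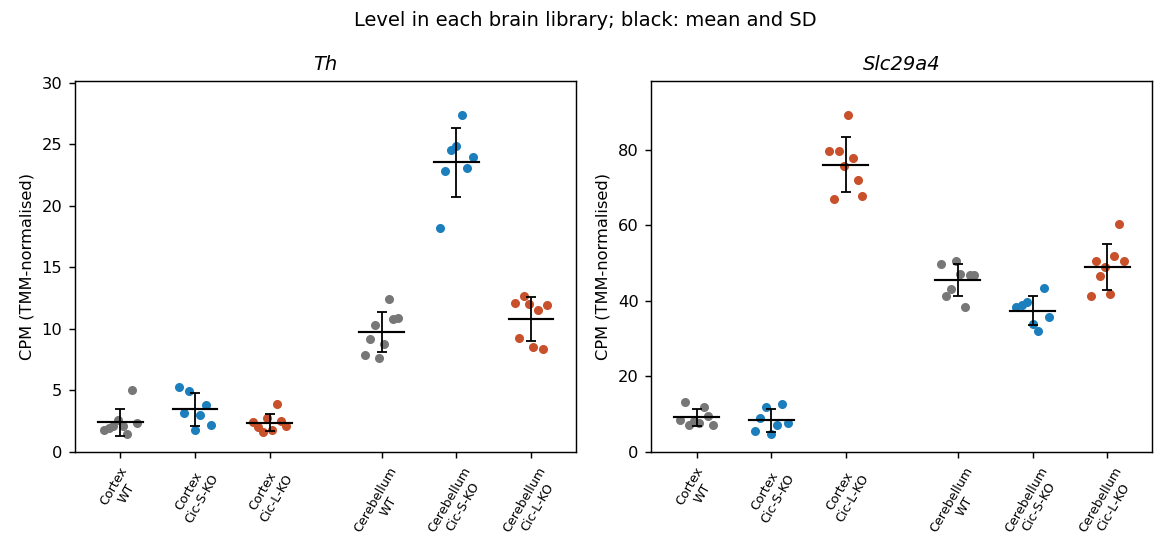
CPM of Th (left) and Slc29a4 (right) in each of the 46 brain libraries by region and genotype, 1 point a library, with the group mean and SD in black. The 7 Cic-S-KO cerebellum libraries hold the highest Th values (18.2 to 27.4 CPM) and the 8 Cic-L-KO cortex libraries the highest Slc29a4 values (66.8 to 89.2 CPM).

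Slc29a4, the transporter gene, chose the cortical comparison. Its lowest, median and highest values were 6.98, 8.33 and 13.2 CPM in WT cortex, 4.68, 7.70 and 12.7 in Cic-S-KO cortex, and 66.8, 76.7 and 89.2 in Cic-L-KO cortex. All 8 Cic-L-KO libraries stood above every other cortical library, and the WT and Cic-S-KO ranges overlapped. The means were 9.10 ± 2.29 (SD, n = 8), 8.37 ± 3.07 (n = 7) and 76.0 ± 7.32 (n = 8) CPM. The fitted difference of Cic-L-KO from WT was log2 3.07 (SE 0.172), or 8.39-fold, and that of Cic-S-KO from the same WT libraries was log2 -0.12 (SE 0.189). Per length, the 26.6 ± 2.56 RPKM of Cic-L-KO cortex exceeded the 15.9 ± 1.48 RPKM of WT cerebellum, where the gene is higher than in WT cortex. Choroid plexus marker sums in Cic-L-KO cortex ran from 19.2 to 1331 CPM, and the library at 19.2 had 67.6 CPM of Slc29a4. Without the 9 cortical libraries over 100 CPM, which left 6, 5 and 3 libraries of WT, Cic-S-KO and Cic-L-KO, the difference of the last from WT was log2 3.19. Summed cortical excitatory neuron genes were lower in Cic-L-KO (4161 to 4772 CPM) than in WT (5585 to 6601). The part of these genes and of the choroid plexus markers was not tested.

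In cerebellum Slc29a4 took 38.2, 46.8 and 50.4 CPM as lowest, median and highest values in WT, 31.9, 38.2 and 43.3 in Cic-S-KO, and 41.3, 49.6 and 60.3 in Cic-L-KO. The groups overlapped, but 6 of 7 Cic-S-KO libraries lay below every Cic-L-KO library. Cic-S-KO was lower than Cic-L-KO by log2 -0.40 (SE 0.078, edgeR adjusted p = 0.00114), while Cic-L-KO against WT gave 0.12 (SE 0.0745, edgeR adjusted p = 0.285). The difference of Cic-S-KO from WT, in the comparison used to choose the set, was log2 -0.28 with 3 of 7 libraries below all WT. Choroid plexus sums overlapped widely, with medians of 1404, 1184 and 1977 CPM in WT, Cic-S-KO and Cic-L-KO. Without the libraries over 1000 CPM the difference between the knockouts was log2 -0.42 (edgeR adjusted p = 0.0258), with 3 libraries in each group. The part of the choroid plexus markers was not tested. In lung the 3 genotypes averaged 8.63, 8.55 and 8.96 CPM, with log2 differences from WT of -0.011 for Cic-S-KO and 0.054 for Cic-L-KO (95% intervals -0.24 to 0.22 and -0.18 to 0.29).

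**Figure D2:**
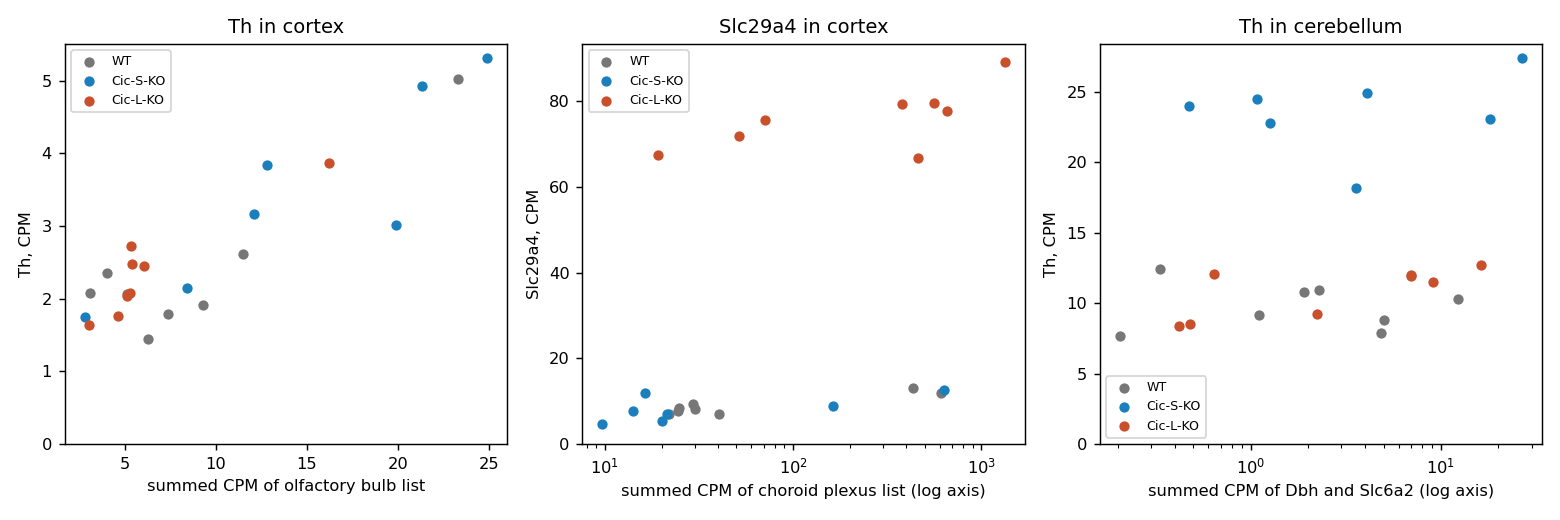
Th in cortex against the summed CPM of the olfactory bulb list, Slc29a4 in cortex against that of the choroid plexus list (log axis), and Th in cerebellum against Dbh plus Slc6a2 (log axis), with 1 point a library coloured by genotype. Cortical Th is highest where the olfactory bulb sum is over 20 CPM. The Cic-L-KO points for Slc29a4 in cortex and the Cic-S-KO points for Th in cerebellum stand above the other genotypes. The part of the markers was not tested.

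In the comparison of Cic-S-KO with WT cerebellum, all members except Slc22a3 passed the filter on low counts, and 8.23% of all genes were called. In that of Cic-L-KO with WT cortex 43.2% of all genes were called. These comparisons chose the set, so no count of members called is given for either. In Cic-S-KO against WT cortex, 0 of 7 members passed edgeR's adjusted threshold, where 6.53% of all genes did. DESeq2 also called 0, and 2 members (Th and Slc22a3) had an unadjusted p under 0.05. In Cic-L-KO against WT cerebellum 1 of 6 passed (Maob), where 21.5% of all genes did. Between the knockouts, which share libraries with the comparisons used for selection, 0 of 7 passed in cortex (33.9% of all genes, DESeq2 0, and 2 members, Th and Slc18a2, at an unadjusted p under 0.05), and 1 of 6 passed in cerebellum (Slc29a4, 12.4% of all genes).

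**Figure D3:**
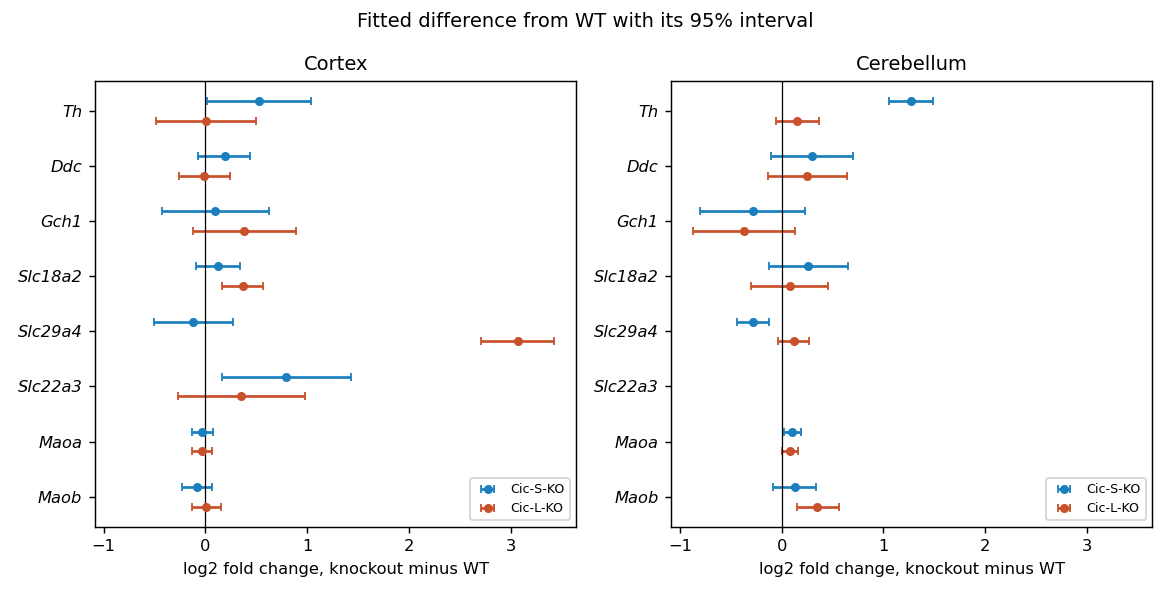
Fitted log2 difference of each knockout from WT for the members in cortex and cerebellum, with 95% intervals, in edgeR fits over all genes of the region. Slc29a4 in Cic-L-KO cortex (3.07) and Th in Cic-S-KO cerebellum (1.27) lie farthest from 0, and Slc22a3 has no cerebellar value because it did not pass the filter on low counts.

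The other synthesis genes moved less in brain. Ddc ranged from 4.57 to 6.71 CPM in WT cortex, from 4.13 to 7.97 in Cic-S-KO and from 4.39 to 7.74 in Cic-L-KO, and from 2.88 to 5.98, 4.21 to 7.15 and 3.57 to 9.81 CPM in the same genotypes in cerebellum. All these ranges overlapped, and no brain comparison of Ddc between genotypes passed where it was tested (edgeR adjusted p between 0.235 and 0.912). The highest cerebellar Cic-L-KO values, 9.81 and 7.87 CPM, came from libraries with 6.97 and 16.3 CPM of Dbh plus Slc6a2, while others with 9.13 and 6.99 CPM had 4.28 and 4.57 CPM of Ddc. Gch1 was near the low end in brain, between 0.429 and 2.52 CPM over the 46 libraries. Its mean ran from 0.972 ± 0.384 (SD, n = 8) in WT cortex to 1.64 ± 0.604 (n = 8) in WT cerebellum, and no tested difference between genotypes passed (edgeR adjusted p between 0.294 and 0.880).

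Slc18a2, the vesicle loader, had lowest, median and highest values of 5.27, 6 and 8.13 CPM in WT cortex, 5.70, 6.35 and 8.15 in Cic-S-KO and 6.88, 8.17 and 9.87 in Cic-L-KO. In Cic-L-KO 4 of 8 libraries lay above all WT, with log2 0.37 (SE 0.101, 1.29-fold), given without its p because the comparison chose the set. Cic-S-KO minus Cic-L-KO was log2 -0.24 (95% interval -0.46 to -0.03, edgeR adjusted p = 0.0686), which did not pass. In cerebellum its means were 5.48 ± 1.39, 6.57 ± 2.20 and 5.76 ± 1.40 CPM, and the WT library at 8.33, the Cic-S-KO libraries at 9.89 and 8.84 and the Cic-L-KO library at 8.68 were the 4 with Dbh plus Slc6a2 over 10 CPM. Without them the Cic-S-KO difference from WT went from 0.26 to 0.10 on the log2 scale. The part of Dbh and Slc6a2 was not tested.

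Slc22a3, the other low-affinity transporter, had lowest, median and highest values of 1.36, 2.09 and 2.7 CPM in WT cortex, 0.894, 4.03 and 5.42 in Cic-S-KO and 1.03, 2.47 and 4.81 in Cic-L-KO. In Cic-S-KO 5 of 7 libraries lay above all WT and 1 lay below all WT, a log2 difference of 0.79 (95% interval 0.16 to 1.43) that did not pass (edgeR adjusted p = 0.118). The level mostly went with the summed CPM of 6 striatal genes. An exception was the WT library with the lowest sum, 168, which stood at 2.33 CPM, above its group's median. The Cic-S-KO library at 0.894 CPM of Slc22a3 had a striatal sum of 171 and the one at 5.42 had 646, while the Cic-L-KO library at 4.81 had 543, the highest of its group. The striatal sums ran from 168 to 552 CPM (median 293) in WT and from 171 to 660 (median 569) in Cic-S-KO, where 4 of 7 libraries lay above all WT, and their part was not tested. In cerebellum Slc22a3 was at most 0.841 CPM in any library and was not fitted within that region. Plg overlaps Slc22a3 on the other strand, with few reads in these libraries, and whether reads were counted by strand is not given in the sources used here.

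Maoa, which prefers serotonin and noradrenaline as substrates, was among the least variable members. In cortex its lowest, median and highest values were 34.8, 37.4 and 40.6 CPM in WT, 31.2, 38.8 and 40.7 in Cic-S-KO and 35.3, 36.7 and 38.1 in Cic-L-KO, and the log2 differences from WT were -0.030 (95% interval -0.13 to 0.07) and -0.034 (-0.13 to 0.06). In cerebellum the means were 62.0 ± 2.73, 66.5 ± 3.26 and 65.1 ± 4.3 CPM, with log2 0.078 for Cic-L-KO (SE 0.040, edgeR adjusted p = 0.171). Maob, found mainly in astrocytes and serotonergic neurons, overlapped between all 3 genotypes in cortex, with means of 30.1, 28.2 and 30.1 CPM. In cerebellum its lowest, median and highest values were 21.4, 26.7 and 30.8 CPM in WT, 25.0, 28.1 and 35.0 in Cic-S-KO and 24.2, 33.4 and 40.2 in Cic-L-KO. Maob rose in Cic-L-KO by log2 0.35 (SE 0.0979, 1.28-fold, edgeR adjusted p = 0.0112), with 5 of 8 libraries above all WT and the rest within the WT range. Without the libraries high in Dbh and Slc6a2 the difference was log2 0.29 (edgeR adjusted p = 0.0416). The sum of 5 astrocyte genes was 2375 to 3006 CPM in WT and 2345 to 2859 in Cic-L-KO, whereas that of 5 endothelial genes was 115 to 150 in WT and 162 to 196 in Cic-L-KO, with no overlap. Choroid plexus sums moved with Maob in Cic-L-KO, where the 5 libraries above all WT had sums of 1766 to 3274 CPM and the other 3 had 430 to 595. In WT the 3 libraries with the lowest Maob (21.4, 23.4 and 23.6 CPM) had sums of 589, 487 and 27.7. Cic-S-KO was mixed: the highest Maob (35.0 CPM) went with the highest sum (4017). The lowest Maob there (25.0 CPM) had a sum of 1619, and the library with the lowest sum (132) stood at 29.7 CPM. Without the libraries over 1000 CPM, which left 3 in each group, the Maob difference was log2 0.24 and no longer passed (edgeR adjusted p = 0.102). The part of the endothelial, astrocyte and choroid plexus genes was not tested.

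**Figure D4:**
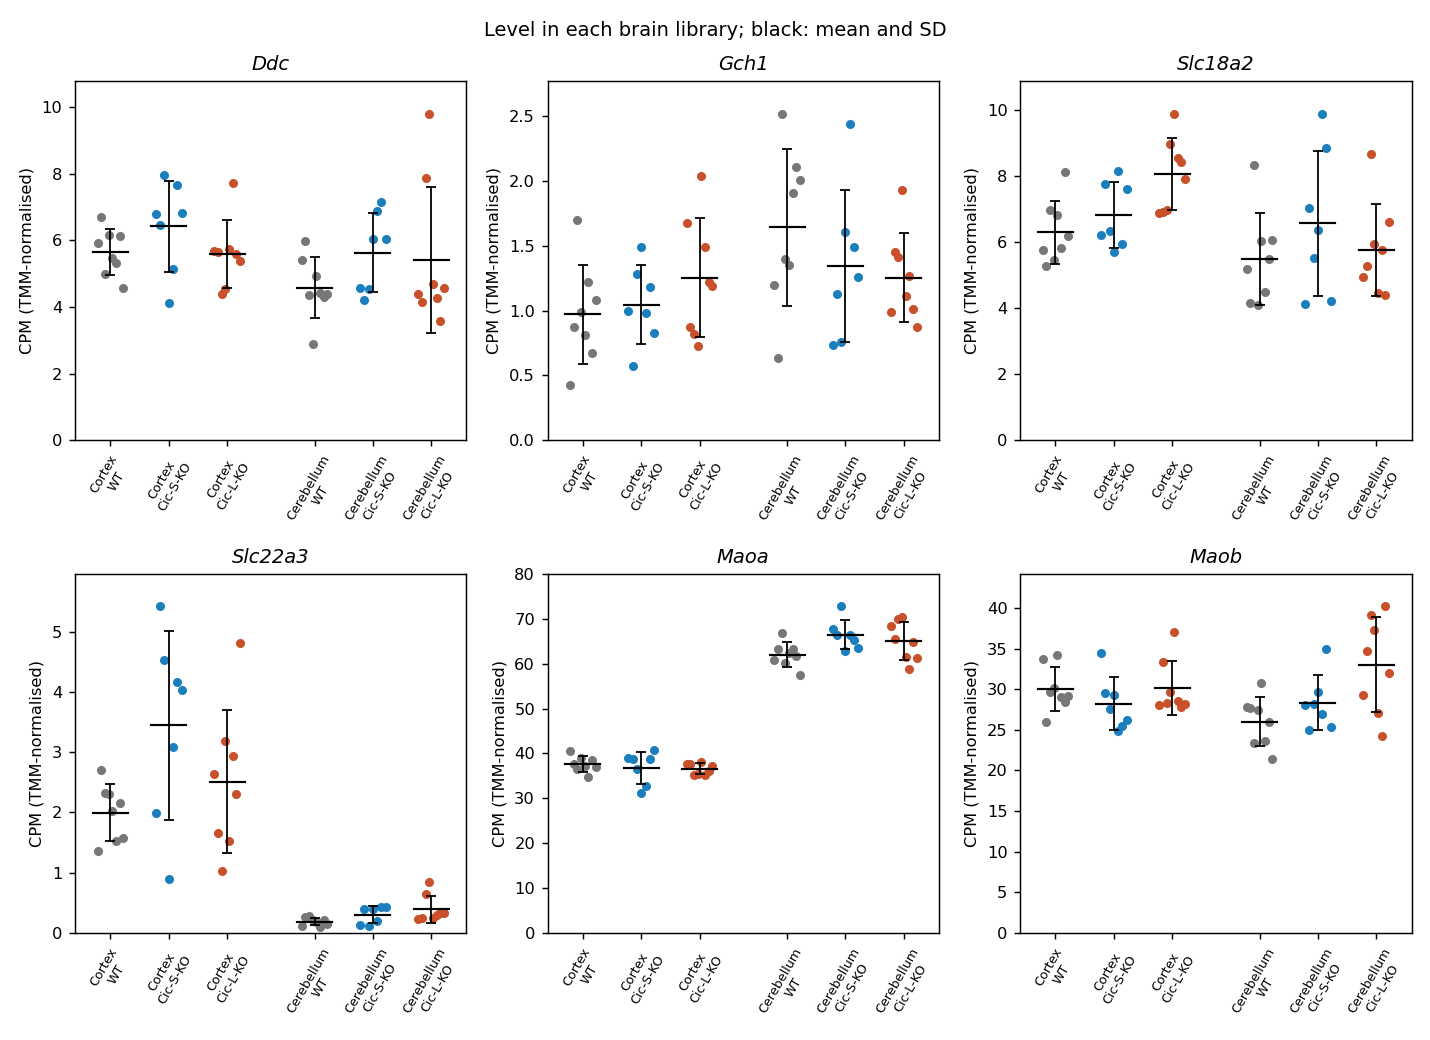
CPM of Ddc, Gch1, Slc18a2, Slc22a3, Maoa and Maob in each brain library by region and genotype, with the group mean and SD in black. Maoa is higher in cerebellum (57.4 to 72.8 CPM) than in cortex (31.2 to 40.7 CPM), and Slc22a3 lies below 1 CPM in every cerebellar library.

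In lung at postnatal day 6 Th gave 2, 7 and 3 reads in all WT, Cic-S-KO and Cic-L-KO libraries together, and at most 3 in any library, where 3 reads equal 0.0831 to 0.171 CPM. It was not tested, and these counts allow no difference to be detected. Downstream genes were present, with Maoa highest per length (24.4 ± 3.23 RPKM in WT), then Maob (11.6 ± 0.392) and Ddc (5.09 ± 0.554). Of 7 members tested, 2 passed in Cic-S-KO against WT (edgeR, 15.7% of all genes), 0 in Cic-L-KO against WT (4.89% of all genes, DESeq2 0, and 0 at an unadjusted p under 0.05), and 1 in Cic-S-KO against Cic-L-KO (12.2% of all genes). Ddc had lowest, median and highest values of 19.3, 22.9 and 26.8 CPM in WT, 15.9, 18 and 23.7 in Cic-S-KO and 20.3, 25.5 and 29.9 in Cic-L-KO. It fell in Cic-S-KO by 0.28 on the log2 scale (SE 0.0853, edgeR adjusted p = 0.0253), with 6 of 8 libraries below all WT. Against Cic-L-KO it was lower by log2 -0.44 (edgeR adjusted p = 0.000974), with 7 of 8 below all Cic-L-KO. Markers of pulmonary neuroendocrine cells, which can express Ddc, summed to between 1.01 and 3.63 CPM in every lung library, with overlapping groups. Of the 4 genes listed 3 were measured, and their part in the Ddc differences was not tested.

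Gch1 moved the other way in lung. Its lowest, median and highest values were 6.15, 8.46 and 13.8 CPM in WT, 9.79, 12.1 and 19.6 in Cic-S-KO and 8.09, 10.2 and 11.7 in Cic-L-KO. It rose in Cic-S-KO by log2 0.54 (SE 0.152, 1.45-fold, edgeR adjusted p = 0.0164), with 2 of 8 libraries above all WT, and the difference from Cic-L-KO (log2 0.40) did not pass (edgeR adjusted p = 0.0856). The sum of 4 genes listed as microglia markers (Cx3cr1, P2ry12, Csf1r and Tmem119) also ran higher in Cic-S-KO lung (213 to 281 CPM) than in WT (176 to 220). That of 5 endothelial genes had medians of 2342 and 2656 CPM, and that of 5 genes listed for meningeal fibroblasts 3892 and 4337. The microglia and fibroblast lists were drawn up for brain. Their part in the lung values was not tested. Maoa in Cic-S-KO lung was at 89.0 ± 8.32 CPM against 102 ± 13.4 in WT (log2 -0.20, 95% interval -0.35 to -0.04, edgeR adjusted p = 0.0765). Slc18a2, Slc22a3 and Maob differed by less than 0.1 on the log2 scale in either knockout against WT.

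**Figure D5:**
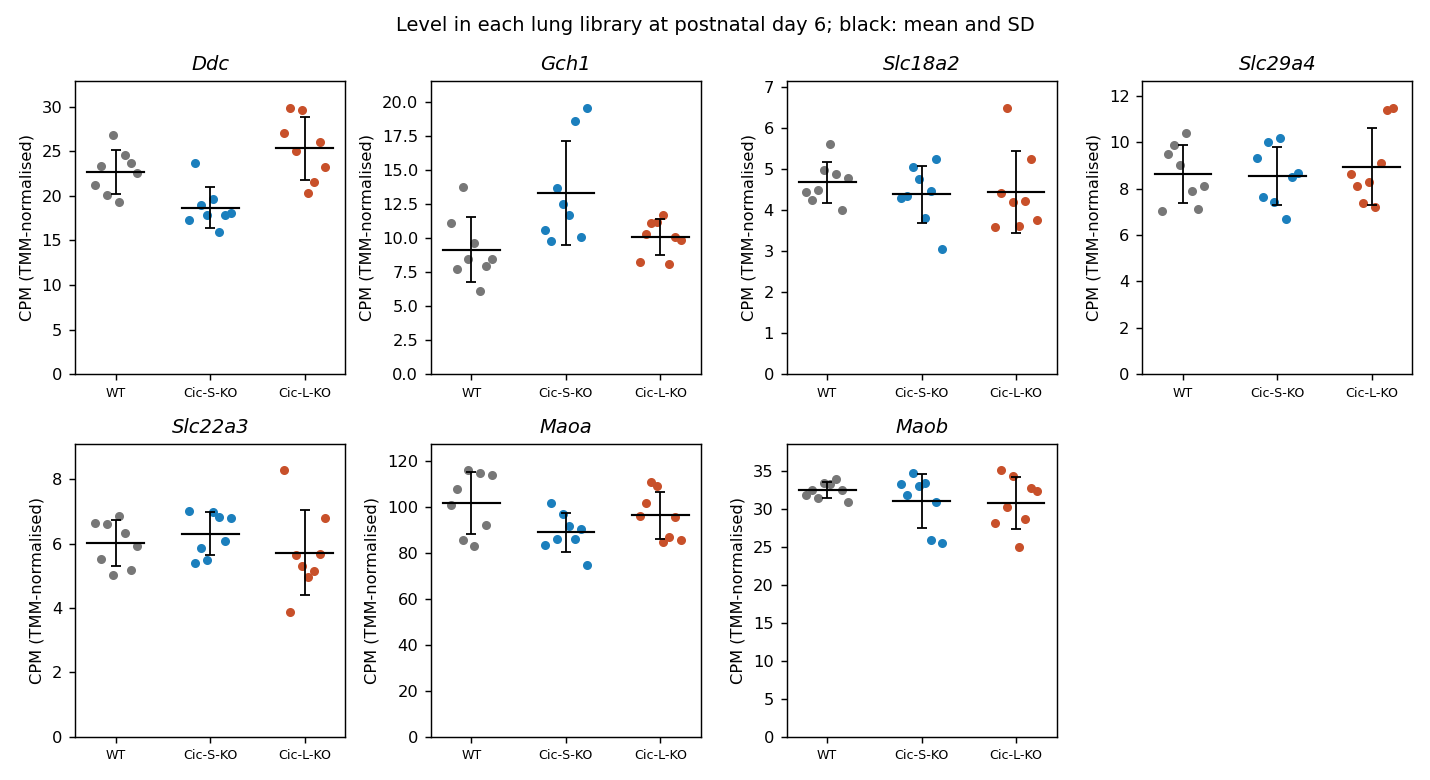
CPM of 7 members in each of the 24 lung libraries by genotype, with the group mean and SD in black, leaving out Th. Ddc lies lower in Cic-S-KO (15.9 to 23.7 CPM) than in most WT libraries (19.3 to 26.8 CPM), and Gch1 lies higher (9.79 to 19.6 against 6.15 to 13.8 CPM).

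The other genes of the pathway, 33 measured of 34 listed, cover the cofactor, later synthesis, other transporters, other breakdown enzymes and receptors. In Cic-S-KO cerebellum, where Th was high, 1 of 28 tested passed (8.23% of all genes): Gchfr, the feedback regulator of GTP cyclohydrolase, rose from 1.86 ± 0.346 to 3.07 ± 0.548 CPM (log2 0.73, edgeR adjusted p = 0.00212), with 6 of 7 libraries above all WT. In Cic-L-KO cerebellum, where Th overlapped WT, Gchfr was at 2.39 ± 0.345 CPM (log2 0.37 from WT, edgeR adjusted p = 0.0536), and the difference between the knockouts did not pass (log2 0.36, edgeR adjusted p = 0.0854). Dbh, which turns dopamine into noradrenaline, was at 1.32 ± 1.5 CPM in WT and 3.08 ± 3.96 in Cic-S-KO (edgeR adjusted p = 0.450). The list's median log2 difference was 0.13, against 0.005 over all genes tested.

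In Cic-L-KO cortex, where Slc29a4 was high, 8 of 26 pathway genes passed (43.2% of all genes), 3 higher and 5 lower, with a median of -0.08 against 0.01 over all genes. The receptors Adra1d, Adra2c and Adrb1 fell by 0.49, 0.33 and 0.34 on the log2 scale (edgeR adjusted p = 0.000792, 0.000847 and 2.71e-05), and Adrb3 rose by 0.43 (0.0414). The summed excitatory neuron genes had medians of 6200 CPM in WT and 4379 in Cic-L-KO with no overlap. They fell as Adra1d, Adra2c and Adrb1 did and Adrb3 did not, and their part was not tested. Pcbd1, a cofactor-recycling enzyme, fell by 0.62. The aldehyde dehydrogenases Aldh2 and Aldh1a1 rose by 0.18 and 0.27. Without the libraries high in choroid plexus markers, 3 of 26 passed, Adra1d and Pcbd1 among them. Aldh2 was named after its values were seen. In Cic-S-KO cortex 3 of 26 passed (6.53% of all genes), all higher: Qdpr, Adra2c and Adrb3, with log2 0.27, 0.30 and 0.60 (edgeR adjusted p = 0.0203, 0.0198 and 0.0368), and 0 of 26 without the libraries high in choroid plexus markers. Adra2c differed between the knockouts by log2 0.63 (edgeR adjusted p = 1.86e-07), with all 7 Cic-S-KO libraries above all Cic-L-KO libraries. That was among 7 of 26 called between the knockouts (33.9% of all genes). The striatal sums had medians of 293, 569 and 275 CPM in WT, Cic-S-KO and Cic-L-KO cortex, with overlapping ranges. Their part in these differences was not tested.

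In Cic-L-KO cerebellum 5 of 28 passed (21.5% of all genes), all higher: Spr, Aldh2, Aldh1a1, Adra1b and Adra1d, from log2 0.15 for Spr to 0.70 for Adra1b, with a list median of 0.14 against 0.004. The endothelial sums that did not overlap between these groups apply here too, and without the libraries over 1000 CPM of choroid plexus markers 3 of 28 passed (Aldh2, Aldh1a1 and Adra1b). Between the knockouts 4 of 28 passed (12.4% of all genes), Aldh1a1, Adra1b and Adra1d being lower in Cic-S-KO and Adra2b higher, and 1 without those libraries (Aldh1a1). In lung 4 of 22 passed in Cic-S-KO against WT (15.7% of all genes), Spr, Aldh1a1, Akr1a1 and Adra2a, all higher, and Adra2a, the alpha-2A adrenergic receptor, rose from 1.92 to 5.44 CPM (log2 1.51, edgeR adjusted p = 0.00148). In Cic-L-KO lung 1 of 22 passed (4.89% of all genes), Sult1a1 with log2 0.26 (edgeR adjusted p = 0.0464). Between WT regions 21 of 29 passed (73.5% of all genes), 12 higher and 9 lower in cortex, among them Drd1, a dopamine receptor, higher in cortex by log2 5.62. The striatal sums of the WT cortex libraries ran from 168 to 552 CPM, and their part was not tested.

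The 5 genes whose level followed Th most closely over the 46 brain libraries, by Pearson's r of log2 CPM with each region centred on its mean, were Shisa2 (0.699), Abr (0.665), Plcb3 (0.649), Gng4 (0.637) and Gabbr1 (0.634), among 14069 genes. For Slc29a4 they were Plce1 (0.931), Pacsin2 (0.921), Trim67 (0.921), Bace1 (0.919) and Ptpre (0.914). These are descriptions, since the libraries of a group share their genotype. Plcb3 averaged 87.9, 115 and 76.9 CPM in WT, Cic-S-KO and Cic-L-KO cerebellum. Plce1 averaged 10.9, 12.1 and 38.3 CPM in WT, Cic-S-KO and Cic-L-KO cortex.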

How the data were processed

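The authors deposited 1 table of raw read counts per gene for 70 samples. Per the labels' protocols, total RNA was isolated from frozen tissue and poly(A)-selected. The submitters' processing notes name STAR 2.7 and GRCm38.p6. The counting tool, annotation and strand setting are not given in the sources used here. Of 50789 versioned Ensembl identifiers, 50725 matched GENCODE M21 with the version removed and 49135 with it, and genes of chromosome 1, including 5 of 122 listed genes, were not analysed here, so that every share of all genes leaves them out. Raw counts per library ran from 20730808 to 32548951 in cortex, from 20440799 to 30464699 in cerebellum and from 17798655 to 35523037 in lung. No 2 of 238 sample pairs within groups held identical values, and the smallest chi-square per degree of freedom was 4.17.

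Groups came from the labels. Each tissue was fitted over its 3 genotypes with edgeR 4.0.16 in R 4.3.3 (filterByExpr, TMM, robust quasi-likelihood), and the 46 brain samples in 1 fit for the WT regions. The main fits did not pair samples by number. The 2-sided tests were adjusted over all genes fitted, with calls at 0.05. Standard errors were the log2 fold change over the square root of F. RPKM used the union of annotated exons. The scripts were tested on simulated data. The members, lists and tests were chosen with earlier results of these data known. No p is given for a member in the 2 comparisons that chose the set, nor for Th in cerebellum, Slc29a4 in cortex, or either between WT regions, and the effects of a knockout were not compared between regions. Named genes were all members in every group, the pathway genes past 0.05 (at most the 6 with the widest fold change are given values), and the 5 genes most correlated with Th and with Slc29a4 (prior count 2, mean log2 CPM at least 0). Cic was named as the targeted gene, and marker genes where a list moved with a member. Some listed genes are counted but not reported here by name. Alternatives were RLE scaling, no low-count filter, DESeq2 1.42.0, a non-robust fit, only the groups compared, a covariate from Y-linked genes, the replicate number as a block and 20 GC bins. Leaving out libraries high in olfactory bulb, choroid plexus or noradrenergic markers, and a block by the number in the library name, were added after seeing the data.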

Additional observations from a re-analysis of the deposited data

Results flagged for a closer look

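Of 72 groups of member values, 3 held a sample whose gap to the nearest other exceeded Dixon's 95% critical value, where chance gives about 1 in 20, or 3.6. Th in WT cortex replicate 7 was 5.02 CPM, with a gap of 0.673 of the group's range, and that library was high in olfactory bulb markers (23.3 CPM). Ddc in Cic-L-KO cortex replicate 6 was 7.74 CPM, with a gap of 0.596, and that library also had the highest olfactory bulb sum of its group (16.2 CPM). Slc18a2 in WT cerebellum replicate 3 was 8.33 CPM, with a gap of 0.531, and that library had the highest Dbh plus Slc6a2 of its group (12.3 CPM). The part of these markers was not tested.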

How the results depend on the processing

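Of 74 fold changes of members, 14 changed sign under at least 1 alternative, and no tested difference that passed was among them. Signs changed for these tested differences that did not pass: with GC bins Slc29a4 in Cic-L-KO against WT lung (-0.010) and Maoa in Cic-S-KO against WT cortex (0.038) and between the knockouts in cortex (-0.018) and cerebellum (-0.021). Without the olfactory bulb libraries Maoa in Cic-S-KO against WT cortex became 0.003, and without the choroid plexus libraries Gch1, Slc22a3 and Maoa between the knockouts in cortex became 0.079, -0.27 and -0.022. Without the libraries high in Dbh and Slc6a2, Ddc and Gch1 between the knockouts in cerebellum became -0.005 and -0.17, Gch1 being -0.013 with the replicate block by library number. Without the cerebellar libraries over 1000 CPM of choroid plexus markers, Slc18a2 in Cic-L-KO against WT became -0.31 and Maob between the knockouts 0.021. RLE scaling and the non-robust fit moved no count by over 1.5 times. In Cic-S-KO against WT cerebellum, which chose the set, the log2 difference of Slc29a4 was -0.28 without the low-count filter and with the replicate block. It was -0.30 without the libraries high in Dbh and Slc6a2 and -0.33 without the cerebellar choroid plexus libraries. In Cic-L-KO against WT cerebellum members called went from 1 to 2 with GC bins, where Maoa reached log2 0.17 (adjusted p = 0.00118), and to 0 without the cerebellar choroid plexus libraries, where Maob was at log2 0.24 (adjusted p = 0.102). Ddc between WT regions passed with only the groups compared (log2 0.32, adjusted p = 0.0191), Maob lost its call there without the filter (log2 0.21, adjusted p = 0.0731), and Maoa in Cic-L-KO cortex went from -0.034 to 0.056 with GC bins. Pathway genes called in lung went from 4 to 2 (Cic-S-KO against WT) and from 1 to 0 (Cic-L-KO against WT) without the filter, the latter also to 0 with GC bins and 2 with the block. In cortex they went from 3 to 1 with GC bins and to 0 without the libraries high in choroid plexus markers (Cic-S-KO against WT), and from 8 to 3 without those libraries (Cic-L-KO against WT). In cerebellum they went from 5 to 8 with the Y-linked covariate and 9 with DESeq2 (Cic-L-KO against WT), and from 4 to 7 with that covariate (between the knockouts). Without the cerebellar choroid plexus libraries they went from 1 to 2, from 5 to 3 and from 4 to 1 in Cic-S-KO against WT, Cic-L-KO against WT and between the knockouts. The cause was not tested, beyond fewer libraries where some were left out.

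Over all genes, calls in Cic-S-KO against WT cortex went from 1108 to 732 without the filter, 449 with GC bins, 627 with the block, 654 with only the groups compared and 165 without the choroid plexus libraries. Without those, Cic-L-KO against WT cortex went from 7338 to 3470 and the knockouts' comparison from 5757 to 2849. Calls in Cic-S-KO against WT cerebellum went from 1370 to 591 with the block and 421 without the libraries high in Dbh and Slc6a2. Without the cerebellar choroid plexus libraries they went from 1370 to 816. Cic-L-KO against WT then went from 3580 to 1112 and the knockouts' comparison from 2069 to 618. With the block every lung count rose, in Cic-L-KO against WT from 817 to 1285. Whether the replicate numbers pair samples was not settled. No comparison had every same-numbered pair over r 0.1 (range -0.386 to 0.346). At most 6 of 8 samples correlated best with their own number. Between Cic-S-KO cortex and cerebellum 6 of 7 did, with r from 0.086 to 0.215. Library-name numbers, which differ from the title numbers in Cic-S-KO brain, gave r from -0.189 to 0.346, with no comparison wholly over 0.1. A block by them changed no count of members called. Depth limits Th in lung and Slc22a3 in cerebellum.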
